A study of Mus musculus with 48 samples.

Results

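Mt1, Mt2 and Mt3 encode metallothioneins, and these 3 genes are described here out of 15782 genes measured by GeoMx digital spatial profiling (DSP) in mouse brain sections after spaceflight. The members were taken by name, as the rows Mt1, Mt2 and Mt3 of the normalized tables, and all 3 were present in each of the 4 brain regions. The family had been picked because its members differed between saline-treated flight and ground mice, so that contrast is given for them as a description, without a test. All 3 members also passed a filter at 1.5 times the negative-control value, and the lowest AOI of Mt3 was at 1.63 times that value.

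In DSP, a tissue section carries gene probes with light-cleavable tags, and the tags freed by UV from an area of illumination (AOI) are sequenced and counted. The 12 mice were C57BL/6 males, 10 weeks old at launch, in 4 groups of 3, namely FLT-SAL (spaceflight, saline), GC-SAL (ground control, saline), FLT-BuOE (spaceflight, MnTnBuOE-2-PyP5+, or BuOE) and GC-BuOE (ground control, BuOE). BuOE is a manganese porphyrin mimic of superoxide dismutase and was injected subcutaneously at 1 mg/kg in 0.2 mL, first 7 days ahead of launch and weekly thereafter. Flight mice spent 35 days aboard the space station and reached the laboratory within 20 h of splashdown, and ground mice lived in flight hardware cages on a protocol that started 3 days later. All groups shared the same food, light cycle and killing under ketamine and xylazine. Each mouse gave 4 AOIs, 1 each in the hippocampal CA field (CA), the dentate gyrus (DG), the frontal cortex (FCT) and a further cortical area (CT), chosen on sections stained for GFAP and Iba1, which makes 48 AOIs. The 3 sections of a group lay on 1 slide, so slide and group cannot be told apart.

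Metallothioneins are small proteins rich in cysteine that bind zinc and copper and can take up reactive oxygen species. Mt1 and Mt2 are expressed broadly, in the brain mainly by astrocytes, and are induced by metals through the transcription factor MTF-1 (Mtf1), by glucocorticoids, by interleukin-6 and by oxidative stress. Mt3 was first known as a growth inhibitory factor, is expressed mainly in the nervous system by astrocytes and by neurons that hold zinc in their vesicles, and responds little to metals.

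The 3 genes lie in 1 cluster on mouse chromosome 8, in the same orientation on the plus strand (GRCm38, GENCODE vM21). Mt3 spans chr8:94152607-94154146, Mt2 chr8:94172664-94173568 and Mt1 chr8:94179082-94180327, each with 3 exons, and the stretch from Mt3 to Mt1 covers 27721 bases. Mt4, the fourth gene of the cluster, was not analysed here because the normalized tables hold no row of that name. The coding sequences, from the ATG to the stop codon of the reference transcripts Mt1-201, Mt2-201 and Mt3-201, show how alike the members are and carry the cysteine codons in capitals.

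Mt1: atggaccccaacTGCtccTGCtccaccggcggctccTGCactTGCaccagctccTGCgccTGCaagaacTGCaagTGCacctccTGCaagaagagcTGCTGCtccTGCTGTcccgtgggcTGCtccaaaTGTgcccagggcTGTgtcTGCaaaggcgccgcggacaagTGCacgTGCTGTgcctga

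Mt2: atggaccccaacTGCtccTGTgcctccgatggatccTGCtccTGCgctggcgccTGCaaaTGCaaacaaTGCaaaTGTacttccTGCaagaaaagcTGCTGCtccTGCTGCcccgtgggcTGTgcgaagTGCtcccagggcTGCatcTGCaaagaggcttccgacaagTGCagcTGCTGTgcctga

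Mt3: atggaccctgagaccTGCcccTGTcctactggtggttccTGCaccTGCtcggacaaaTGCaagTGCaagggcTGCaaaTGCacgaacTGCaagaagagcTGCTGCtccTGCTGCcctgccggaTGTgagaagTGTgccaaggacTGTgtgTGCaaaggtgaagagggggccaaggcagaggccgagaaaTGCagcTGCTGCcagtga

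Each of the 3 coding sequences holds 20 cysteine codons, among 61 amino acid codons in Mt1 and Mt2 and 68 in Mt3. In a global alignment, 79.6% of the columns were identical between Mt1 and Mt2, 68.9% between Mt1 and Mt3 and 69.2% between Mt2 and Mt3. The longest run of identical bases shared by a pair of reference transcripts was 27, between Mt1 and Mt3, and it was 20 in each of the other pairs. The probe sequences were not analysed here, so how far a probe for one member also captures another is unknown, and the 3 readouts are not known to be independent of each other.

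Metal response elements, the sites that MTF-1 binds, share the cores TGCGCNC and TGCACNC. Both cores were searched on both strands of the RefSeq promoter windows (GRCm38.p6), which run from 250 bases before to 50 bases after each annotated start. The Mt1 window held 3 matches, the Mt2 window 4 and the Mt3 window 1. Of all 32851 windows, 25.7% held at least 1 match, 1.97% at least 3 and 0.517% at least 4. A match is a run of letters, not a bound site. The antioxidant response element TGACNNNGC, which NRF2 binds, had 1 match in the Mt2 window and none in the others, and 12.4% of all windows held it. All 8 metal-element matches are shown so that the windows can be compared, each with its surroundings and the core in capitals. Positions are counted in bases from the RefSeq start, and the strand is that of the gene unless stated. For Mt1 and Mt2 the RefSeq start is not the GENCODE start given above. The Mt2 window, chr8:94172368-94172667, ends just past the GENCODE start at 94172664, and the Mt1 window is chr8:94178839-94179138. The match counts hold for these windows only, which lie differently around the GENCODE starts.

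Mt1 at -23: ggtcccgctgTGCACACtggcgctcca

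Mt1 at +2: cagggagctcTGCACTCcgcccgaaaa

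Mt1 at +20: gcccgaaaagTGCGCTCggctctgcca

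Mt2 at -223: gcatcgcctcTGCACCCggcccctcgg

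Mt2 at -128: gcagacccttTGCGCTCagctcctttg

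Mt2 at -50, opposite strand: ggacagagccTGCACACgccctccccc

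Mt2 at +4, opposite strand: cccctgggccTGCGCACgacccgaatt

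Mt3 at +27: gggacagcagTGCACACacacggagag

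The values are Q3-normalized counts, which scale each AOI so that the upper quartile of its genes is the same, 40.02, in all 48 AOIs. Total counts ran from 322629 to 1579380 per AOI (median 652040), and the FLT-SAL slide was counted most deeply, with a median of 991426 against 628308 in GC-SAL, 639735 in GC-BuOE and 548888 in FLT-BuOE. The raw counts behind the values were 55 to 505 for Mt1, 33 to 286 for Mt2 and 15 to 180 for Mt3, and the median ratio of the level to that of the negative-control probes was 11.1 for Mt1, 5.75 for Mt2 and 4.66 for Mt3. Levels are per probe with no length scale, so levels of different genes are not compared. The labelled regions matched their markers. The summed level of 5 CA1 markers was 391 to 586 in CA and at most 292 elsewhere, that of 5 dentate granule markers 247 to 357 in DG and at most 160 elsewhere, and that of 6 cortex markers at least 260 in FCT and 282 in CT, against at most 244 in CA and 190 in DG.

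Mt1 of the saline flight mice lay above that of the saline ground mice in all 4 regions, and under BuOE, Mt1 averaged over the regions was 1.26-fold higher in flight, which is less than the fold threshold. An AOI is a bulk sample, so fewer cells of a type and less RNA per cell cannot be told apart. In CA, Mt1 was 155, 179 and 239 in the 3 FLT-SAL mice and 112, 126 and 114 in the 3 GC-SAL mice. In DG it was 193, 180 and 251 in FLT-SAL and 99.4, 145 and 111 in GC-SAL. In FCT it was 212, 254 and 227 in FLT-SAL and 98.0, 172 and 118 in GC-SAL. All FLT-SAL mice lay above all GC-SAL mice in these 3 regions. In CT the values were 184, 221 and 229 in FLT-SAL and 125, 142 and 142 in GC-SAL, again without overlap. The ratios of the means, in the order CA, DG, FCT and CT, were 1.63, 1.76, 1.79 and 1.55. As a description, 7.55%, 7.39%, 7.41% and 5.14% of all genes were higher in FLT-SAL without overlap in CA, DG, FCT and CT, and 14 of the 15782 genes, or 0.0887%, in all 4 regions, but this is the contrast that led to the choice of the family.

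The BuOE arm was not used in that choice, and there the flight effect could be tested. The test was limma on the log2 of the Q3-normalized count plus 1, in 1 fit of the 4 groups of a region, and calling a gene took a fold beyond 1.5 in either direction together with an adjusted p of less than 0.05. In CA, Mt1 was 145, 187 and 193 in FLT-BuOE and 116, 141 and 144 in GC-BuOE, a log2 difference of 0.38 ± 0.16 (SE, n = 3 mice per group). In DG it was 195, 210 and 165 in FLT-BuOE and 113, 141 and 137 in GC-BuOE, a log2 difference of 0.54 ± 0.14. The FLT-BuOE mice lay above the GC-BuOE mice without overlap in CA and DG, which was true of 5.09% and 5.16% of all genes. In FCT the groups overlapped, with 134, 205 and 156 in FLT-BuOE against 148, 162 and 161 in GC-BuOE and a log2 difference of 0.05 ± 0.16. In CT the values were 142, 207 and 210 in FLT-BuOE and 119, 159 and 159 in GC-BuOE, with a log2 difference of 0.34 ± 0.16, and only the lowest FLT-BuOE mouse lay within the GC-BuOE range.

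With p-values adjusted by Benjamini-Hochberg in limma, 0 of the 12 pairs of a member and a region were called in FLT-BuOE against GC-BuOE. Over all genes, the percentages called were 0.0444%, 0.108%, 0.019% and 0.0127% in CA, DG, FCT and CT. The smallest adjusted p of a member was 0.135, for Mt1 in DG. At an unadjusted p below 0.05 there were 6 of 12 pairs, 3 of Mt1 (CA, DG and CT, higher in FLT-BuOE) and 3 of Mt3 (DG, FCT and CT, lower in FLT-BuOE), while 6.65% to 8.24% of all genes passed that level in a region. The regions of a member come from the same mice. The 12 pairs are therefore not independent, and their share does not compare directly with that of all genes in a region. The count tests of edgeR and DESeq2 also called 0 pairs, but DESeq2 gave no adjusted p for Mt3 in DG.

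Averaged over the 4 regions in a fit of all 48 AOIs with the mouse as a block, Mt1 was 1.26-fold higher in FLT-BuOE than in GC-BuOE, with a log2 difference of 0.33 ± 0.084 (SE) and an adjusted p of 0.0354 by limma. This is below the fold threshold, so Mt1 was not among the 0.0887% of genes called, whereas 0.672% of all genes had an adjusted p below 0.05 at any size. The block takes 1 correlation for all genes, 0.0255, and the members vary between mice far more than that, as described below. With the mean of the 4 regions as 1 value per mouse, the adjusted p of Mt1 was 0.251, with the same difference. The mouse means were 7.26, 7.67 and 7.50 on the log2 scale in FLT-BuOE and 6.96, 7.25 and 7.24 in GC-BuOE. They did not overlap, and the exact permutation test gave a two-sided p of 0.1, the smallest that 3 mice against 3 allow. Leaving out 1 mouse at a time moved the adjusted p of Mt1 between 0.00271 without FLT-BuOE mouse 1 and 0.381 without GC-BuOE mouse 1, with a log2 difference of 0.23 to 0.43.

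**Figure D1:**
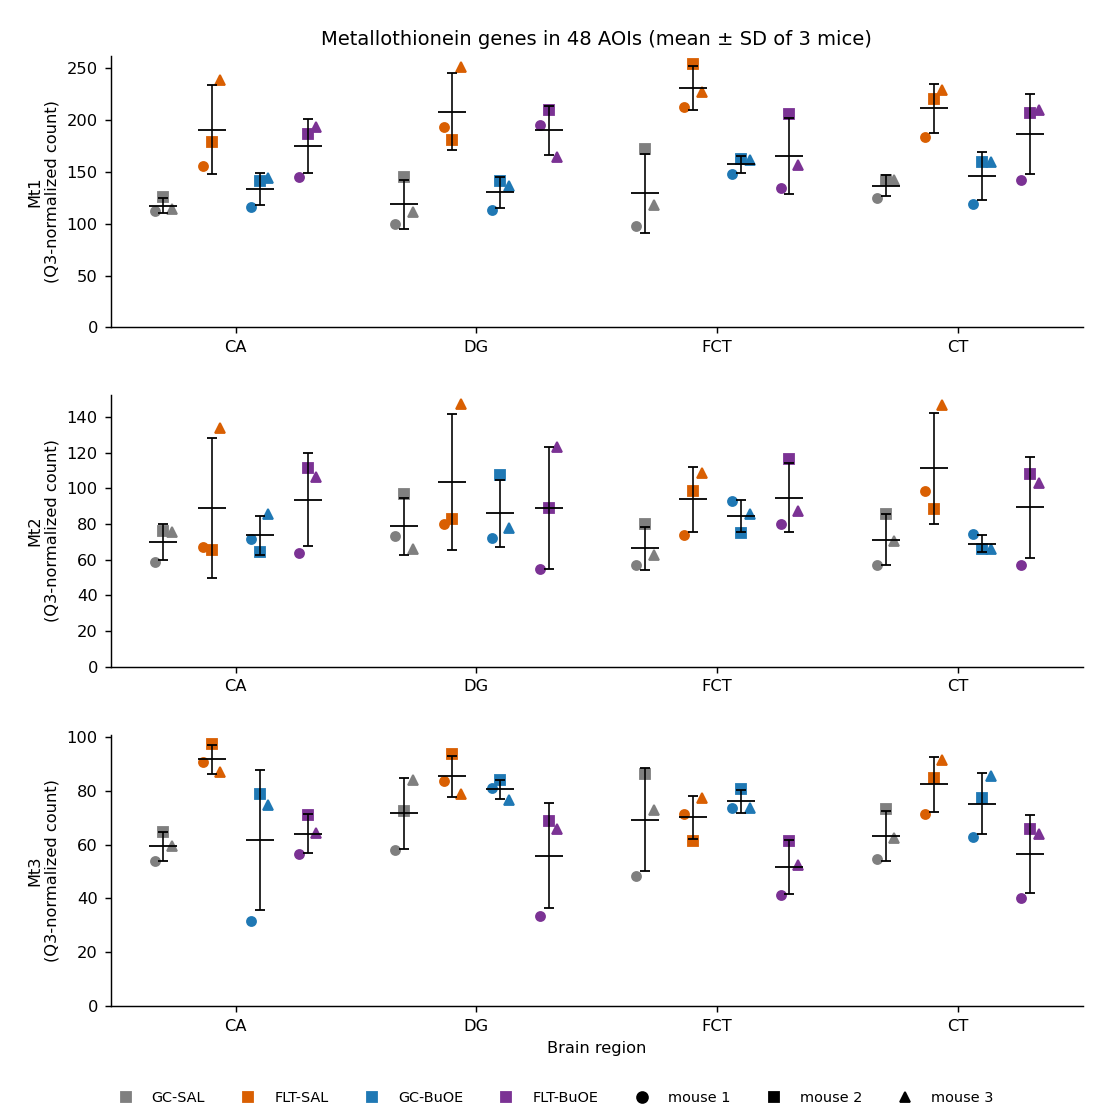
Q3-normalized counts of Mt1, Mt2 and Mt3 (y axes, from 0) by region (x axis) and group (colour), with 1 symbol per mouse and black bars for the mean ± SD of 3 mice. Mt1 of FLT-SAL lies above GC-SAL in every region, and Mt3 of FLT-BuOE lies below FLT-SAL in every region.

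Mt2 had no call in the tested contrast, and single mice stood out for it. In CA, Mt2 was 67.1, 65.7 and 134 in FLT-SAL and 58.5, 76.2 and 75.6 in GC-SAL. In DG it was 80.0, 82.6 and 147 in FLT-SAL against 73.1, 96.8 and 66.0 in GC-SAL. In both regions FLT-SAL mouse 3 stood apart and the other FLT-SAL mice lay within the GC-SAL range. In FCT the values were 73.8, 98.6 and 109 in FLT-SAL and 56.9, 80.0 and 62.4 in GC-SAL. In CT they were 98.2, 88.6 and 147 in FLT-SAL and 57.0, 85.8 and 70.7 in GC-SAL. CT was the region where Mt2 of the saline groups did not overlap, which held for 5.14% of all genes in that direction, and the log2 differences were 0.27, 0.35, 0.49 and 0.62 in CA, DG, FCT and CT, with SEs of 0.17 to 0.20.

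Under BuOE, Mt2 was 63.5, 111 and 106 in CA of FLT-BuOE and 71.6, 64.0 and 85.5 in GC-BuOE, with a log2 difference of 0.31 (95% interval -0.09 to 0.71). In DG the values were 55.0, 88.8 and 123 in FLT-BuOE and 72.3, 108 and 77.8 in GC-BuOE, and the difference was 0.00 (-0.39 to 0.39). FLT-BuOE mouse 1 had the lowest Mt2 of its group in all 4 regions. The differences were 0.15 (-0.19 to 0.50) in FCT and 0.32 (-0.06 to 0.69) in CT, and the groups overlapped in every region. Averaged over regions the log2 difference was 0.19 ± 0.11 (SE, adjusted p 0.575 by limma). Without FLT-BuOE mouse 1 it was 0.43, with an adjusted p of 0.0313.

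Mt3 was higher in flight than on the ground in CA of saline mice, and under BuOE the flight values were below the ground values in DG and FCT without overlap, though no region was called. In CA, Mt3 was 90.6, 97.5 and 87.0 in FLT-SAL and 53.9, 64.8 and 59.3 in GC-SAL, without overlap, as were 7.55% of all genes in that direction. In the other regions the saline groups overlapped, with log2 differences (FLT-SAL minus GC-SAL) of 0.26 in DG, 0.05 in FCT and 0.38 in CT, against 0.62 in CA. In the BuOE arm, Mt3 in DG was 33.4, 68.8 and 65.6 in FLT-BuOE and 81.2, 83.8 and 76.7 in GC-BuOE, a log2 difference of -0.59 ± 0.18 (SE). In FCT it was 41.5, 61.4 and 52.5 in FLT-BuOE and 73.6, 80.8 and 73.7 in GC-BuOE, a difference of -0.56 ± 0.18. All FLT-BuOE mice lay below all GC-BuOE mice in DG and FCT, as was the case for 5.34% and 7.25% of all genes. In CT the values were 40.02, 65.6 and 63.9 against 62.9, 77.4 and 85.4, with a difference of -0.43 ± 0.18. CA differed in sign, 0.16 ± 0.21, where GC-BuOE mouse 1 was at 31.6 and the other GC-BuOE mice at 78.7 and 74.6. Without that mouse the CA difference was -0.26.

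Averaged over regions, Mt3 was 0.78-fold in FLT-BuOE relative to GC-BuOE, a log2 difference of -0.36 ± 0.105 (SE) with an adjusted p of 0.0991 by limma, and 0.264 with 1 mean per mouse. Leaving out 1 mouse moved the adjusted p from 0.00713 without GC-BuOE mouse 1 to 0.631 without FLT-BuOE mouse 1. The mouse means overlapped, and the exact permutation test gave a two-sided p of 0.3. The difference between regions in this flight effect was not called for any member. The smallest adjusted p was 0.445, for Mt3 in CA against DG, with a difference of 0.74 (95% interval 0.18 to 1.30) between the log2 differences.

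**Figure D2:**
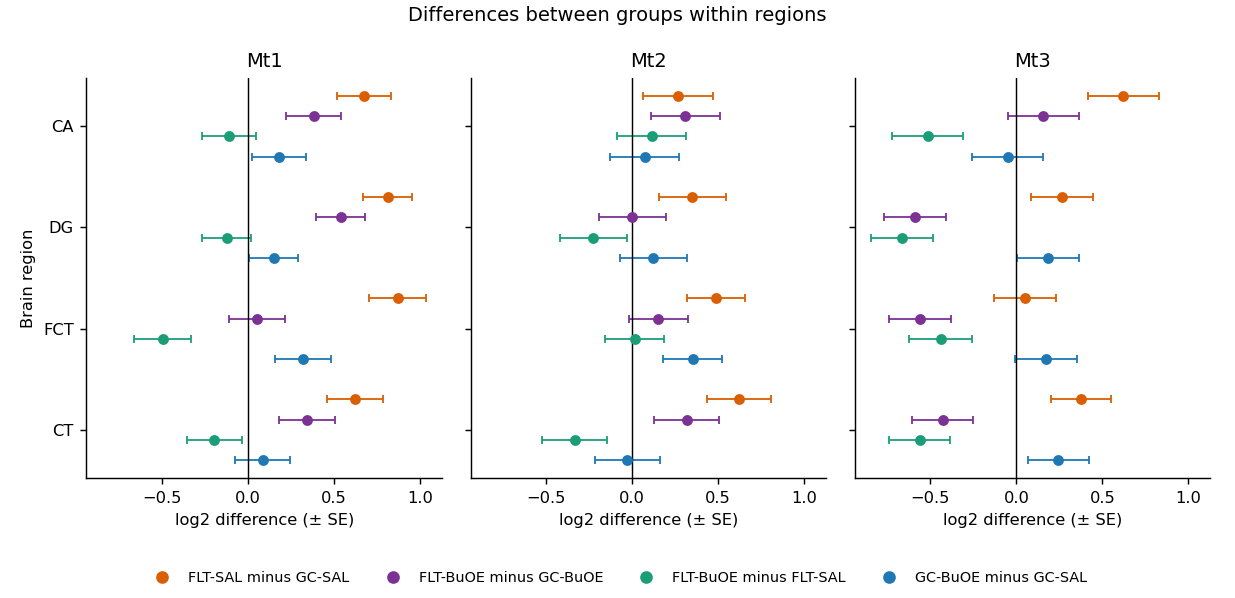
Log2 differences of Mt1, Mt2 and Mt3 (x axes) between groups in each region (y axis), with points for the estimate and bars for ± SE from the limma fit of 12 AOIs. The flight difference of Mt3 is positive in saline mice in all regions and negative under BuOE in DG, FCT and CT.

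BuOE in flight was compared as a description, since the FLT-SAL mice had entered the choice of the family. Mt3 was lower in FLT-BuOE than in FLT-SAL without overlap in all 4 regions. CA held values of 56.6 to 71.2 in FLT-BuOE and 87.0 to 97.5 in FLT-SAL, and DG 33.4 to 68.8 and 78.6 to 93.6. FCT held 41.5 to 61.4 and 61.5 to 77.3, and CT 40.02 to 65.6 and 71.3 to 91.3. In FCT the groups were apart by a margin of 61.4 against 61.5. The log2 differences in CA, DG, FCT and CT were -0.52, -0.67, -0.44 and -0.56, with SEs of 0.18 to 0.21, and 3 genes in all, or 0.019%, were lower without overlap in all 4 regions, against 7.45%, 6.75%, 8.82% and 5.99% in the single regions. Summed cell type markers also differed in this contrast. The 14 astrocyte markers summed to 755 to 872 in DG of FLT-BuOE and 877 to 950 in FLT-SAL, without overlap, and overlapped in the other regions. The 8 oligodendrocyte markers reported here summed to 408 to 452 in CA, 619 to 778 in FCT and 525 to 636 in CT of FLT-BuOE, below the 476 to 554, 890 to 1465 and 1015 to 1347 of FLT-SAL, and overlapped in DG. The 10 neuron markers were lower without overlap in CA (1521 to 1721 against 1745 to 1928), higher without overlap in FCT (2198 to 2656 against 1671 to 2160), and overlapped in DG and CT. Their part in the values of Mt3 was not tested. Mt1 was lower in FLT-BuOE without overlap in FCT, by a log2 difference of -0.50 ± 0.16 (SE), and its differences in the other regions were -0.11, -0.12 and -0.20 in CA, DG and CT. Mt2 differed by -0.33 to 0.11 with overlap in every region.

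On the ground, BuOE and saline mice overlapped for each member in every region. The log2 differences (GC-BuOE minus GC-SAL) of Mt1 were 0.18, 0.15, 0.32 and 0.08 in CA, DG, FCT and CT. Those of Mt2 were 0.07, 0.12, 0.35 and -0.03 in the same order, and those of Mt3 -0.05, 0.18, 0.17 and 0.24. The SEs of these differences were 0.14 to 0.21, and no test was run because the GC-SAL mice had entered the choice of the family.

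Depth moved with the members. After the mean of each region and group was subtracted, the log2 level of Mt3 correlated with the log2 total count of the AOI at r = 0.69 over 48 AOIs from 12 mice, and 0 of the 13829 genes above background had a higher r, their median being 0.04. Mt1 had r = 0.51 and Mt2 r = 0.35, at percentiles 99.4 and 94.1 of those genes. These AOIs share slides and mice, so the correlations are a description. Without the 2 AOIs farthest in depth, r was 0.65 for Mt3, 0.50 for Mt1 and 0.35 for Mt2. Each doubling of the total count went with 0.64 log2 units of Mt3, 0.35 of Mt1 and 0.38 of Mt2, although the values are normalized.

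The slides differ in depth in the order of the Mt3 levels in flight, FLT-SAL being the deepest and FLT-BuOE the shallowest. With the log2 total count as a covariate, a fit added after this relation was seen, the log2 differences of Mt3 between FLT-BuOE and FLT-SAL were -0.03, 0.30, 0.18 and -0.11 in CA, DG, FCT and CT, with SEs of 0.22 to 0.32. The differences of Mt3 between FLT-SAL and GC-SAL were then 0.08, -0.43, -0.43 and 0.04 in CA, DG, FCT and CT. Those of Mt1 between FLT-SAL and GC-SAL were 0.42, 0.81, 0.45 and 0.33, and those of Mt2 0.00, 0.01, 0.20 and 0.36. Averaged over regions, the difference between FLT-BuOE and GC-BuOE with the covariate was 0.41 ± 0.082 (SE) for Mt1, with an adjusted p of 0.00115 by limma, 0.28 ± 0.11 for Mt2 (adjusted p 0.288) and -0.20 ± 0.095 for Mt3 (adjusted p 0.45). In these fits the correlation within a mouse was the same for all genes (0.0255 without the covariate). The share of within-group variance between mice was 0.55 for Mt1, as described below. The SEs may therefore be too small. Without the covariate, the exact permutation test on mouse means gave a two-sided p of 0.1 for Mt1. No test on mouse means is given with it. Depth also went with slide and group, so the covariate may absorb part of a group difference. The flight differences of Mt1 were positive in both arms and all 4 regions with and without the covariate, those of the saline arm being a description. Those of Mt3 between FLT-BuOE and FLT-SAL, negative in all 4 regions without it, were negative only in CA and CT with it.

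**Figure D3:**
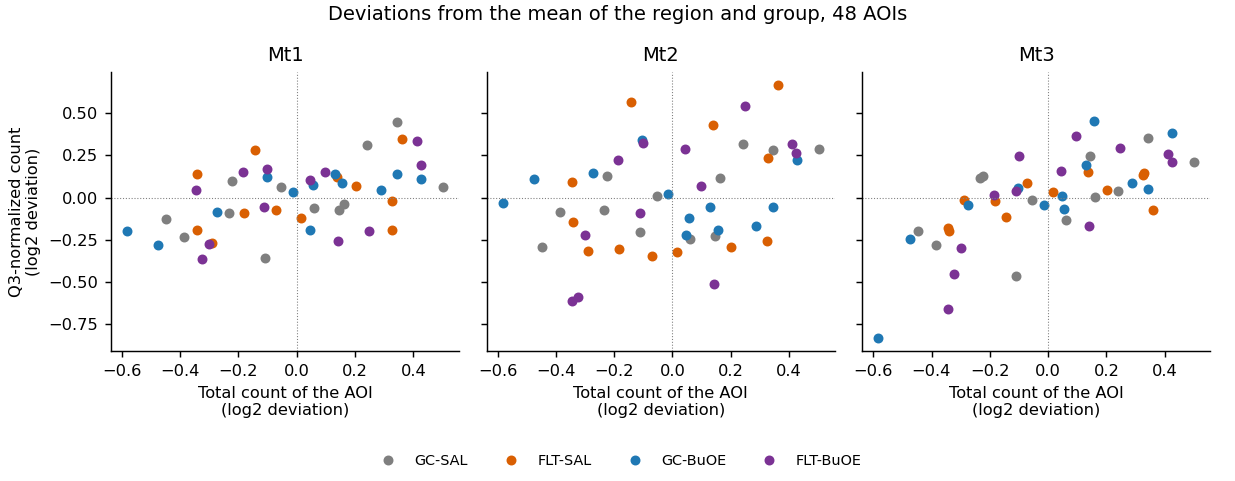
Deviation of Mt1, Mt2 and Mt3 (y axis, log2 of the Q3-normalized count + 1) against the deviation of the total count of the AOI (x axis, log2), both from the mean of the region and group, with 1 point per AOI coloured by group. Points of Mt3 run from low left to high right with r = 0.69 over 48 AOIs, and those of Mt2 scatter more, with r = 0.35.

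The 4 regions of a mouse deviated together for each member. Of the variance within groups, a share of 0.67 lay between mice for Mt2, 0.55 for Mt1 and 0.48 for Mt3, against a median of 0.02 over 13829 genes above background. These shares were at percentiles 99.9, 99.6 and 99.0 of those genes. The SD within groups was 0.36 log2 units for Mt2, 0.23 for Mt1 and 0.31 for Mt3, and counting error at the median count of each gene would give 0.16, 0.12 and 0.17. Mouse 1 had the lowest mean Mt1 and the lowest mean Mt3 in all 4 groups and the lowest mean Mt2 in 3 of 4. Mouse 1 also had the lowest mean total count in all 4 groups, 487438 against 616576 and 624701 in FLT-BuOE for example, and its section had the lowest y coordinate on all 4 slides. The part of section position and depth in these values was not tested. Replicate numbers of different groups are different mice.

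**Figure D4:**
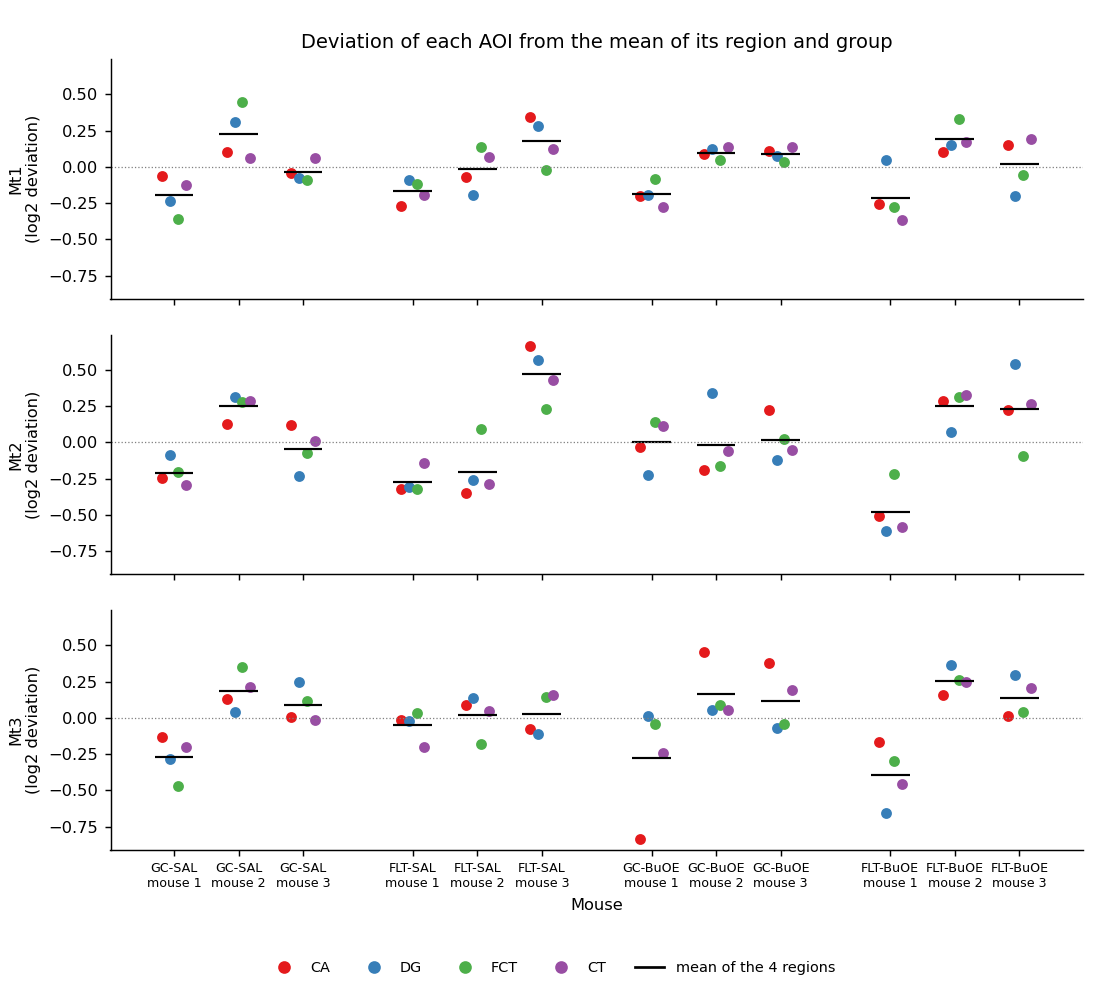
Log2 deviation of each AOI from the mean of its region and group (y axes) for the 12 mice (x axis), with points coloured by region and a black line for the mean of the 4 regions of a mouse. FLT-SAL mouse 3 is high and FLT-BuOE mouse 1 is low for Mt2 in all 4 regions.

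**Figure D5:**
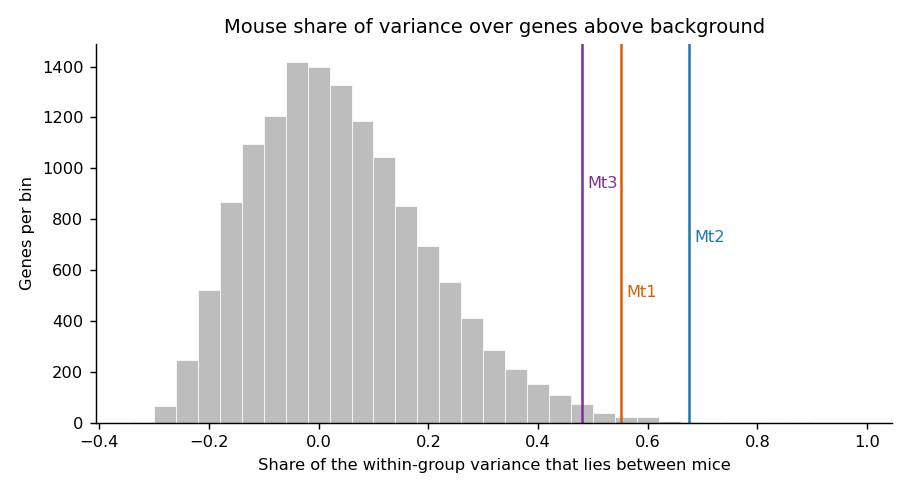
Number of genes (y axis) by the share of within-group variance that lies between mice (x axis), for 13829 genes above 1.5 times the negative-control value. The coloured lines mark Mt3 at 0.48, Mt1 at 0.55 and Mt2 at 0.67, in the right tail of the distribution. Shares below 0 mean that regions of a mouse differed more than mice did.

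No member was called between regions. In the order CA, DG, FCT and CT, the median Mt1 over 12 mice was 144, 155, 162 and 159. The median Mt2 was 73.6, 81.3, 82.8 and 80.0 and the median Mt3 68.0, 77.7, 72.2 and 68.5 in the same order. Of 18 comparisons of a member between 2 regions, 0 were called by limma and 0 had an unadjusted p below 0.05, whereas the percentage of all genes called was 4.1% between CA and DG, 3.28% between CA and FCT, 3.98% between CA and CT, 4.54% between DG and FCT, 5.79% between DG and CT and 0.101% between FCT and CT. No neighbours in the order of regions differed beyond their spread in the limma fit. That fit took the same correlation between AOIs of a mouse, 0.0255, for all genes. The share of within-group variance between mice was 0.48 to 0.67 for the members. The pairing of regions within a mouse was therefore hardly used, and small differences between regions can be missed. The absence of calls does not show that the regions were alike. The largest difference of Mt1 was CA minus CT, -0.14 (95% interval -0.30 to 0.01), that of Mt2 CA minus DG, -0.12 (-0.33 to 0.09), and that of Mt3 DG minus FCT, 0.12 (-0.08 to 0.32). With the total count as a covariate Mt3 was higher in CA than in FCT by 0.44 (adjusted p 0.00451 by limma) and than in CT by 0.45 (adjusted p 0.00677). It was also higher in DG than in FCT by 0.26 (adjusted p 0.0329) and than in CT by 0.28 (adjusted p 0.0268), and all 4 differences were under the fold threshold. Without the covariate the differences from FCT and CT were 0.03 and -0.03 for CA and 0.12 and 0.07 for DG. Depth also differed between regions, with total counts of 322629 to 948561 in CA and 484300 to 1579380 in FCT. The covariate, added after the data were seen, may therefore itself shift a difference between regions.

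Among the members, r over the AOIs was highest for the pair of Mt1 and Mt2. With the mean of each region subtracted, r over the 48 AOIs was 0.66 for Mt1 and Mt2, 0.32 for Mt1 and Mt3 and 0.34 for Mt2 and Mt3. With the mean of each region and group subtracted it was 0.62, 0.50 and 0.42. Mt1 was the gene most like Mt2 of all 13829 genes above background, both before and after subtraction of region means (r = 0.65 and 0.66). In the other direction, Mt2 ranked 11 before and 31 after subtraction among the genes like Mt1. Mt3 ranked 1009 and 1118 for Mt1 and 305 and 664 for Mt2. Among the genes like Mt3, Mt1 ranked 841 and 1235 and Mt2 615 and 1098. The next genes for Mt2 after subtraction were Htra1 (0.65), a secreted serine protease, Slc6a8 (0.64), the creatine transporter, Mrps26 (0.63), of the mitochondrial ribosome, and Pkm (0.62), pyruvate kinase. Before subtraction they were Rhob (0.60), Mrps26 (0.59), Dctn1 (0.57) and Zkscan16 (0.57).

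The genes most like Mt1 after subtraction of region means were Gapdh (r = 0.79), a glycolytic enzyme, Cirbp (0.75), a cold-inducible RNA-binding protein, Apoe (0.75), the main apolipoprotein of astrocytes, Eml2 (0.74) and Rsrp1 (0.72). Before subtraction they were Apoe, Cirbp, Eml2, Rsrp1 and 4930578G10Rik, at 0.69 to 0.74. Those most like Mt3 were Cd99 (0.77), a cell surface glycoprotein, Bcl2l2 (0.70), a survival protein of the Bcl2 family, Gm52523 (0.70), Pgs1 (0.68) and Gm10265 (0.68) after subtraction, and Cd99, Gm52523, Gm10265, Lrp11 and Pgs1, at 0.62 to 0.75, before it. These correlations are taken over AOIs that share mice, slides and depth, and they are a description.

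Genes around the metallothioneins in zinc handling showed no call. Of 23 listed genes of zinc transport and MTF-1, 21 were measured, and 0 were called by limma in FLT-BuOE against GC-BuOE or in FLT-SAL against GC-SAL in any of the 4 regions. Over all genes, 0.0127% to 0.108% were called in a region in the first contrast and 0.0507% to 0.266% in the second. At such shares, 0 calls are likely in any list of this size. Mtf1, the zinc-sensing transcription factor, had group means of 25.4 to 32.5 and log2 differences of -0.19 to 0.12 under BuOE and -0.03 to 0.23 under saline. Slc30a1, a zinc exporter that MTF-1 also induces, differed by 0.01 to 0.30 under BuOE and by -0.26 to 0.20 under saline, with SEs of 0.20 to 0.23. The members of the list with the highest mean level were Slc39a10 (43.3), a zinc importer, and Slc30a3 (42.0), which loads zinc into synaptic vesicles. The median log2 difference of the list lay between -0.05 and 0.11 under BuOE and between -0.03 and 0.02 under saline, against -0.04 to 0.00 and -0.01 to 0.03 over all genes.

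Of 19 genes of copper and iron handling, 15 were measured, and of 21 genes of the antioxidant and NRF2 list, 19 were measured, with 0 calls by limma in either flight contrast. Over all genes, at most 0.108% were called in a region under BuOE and 0.266% under saline, so 0 calls are likely in lists this short. DESeq2 called Fth1, of the first list, in CT of FLT-SAL against GC-SAL, with a log2 difference of 0.66 and an adjusted p of 0.00428. The highest mean levels were those of Fth1 (666) and Ftl1 (105), the ferritin chains, in the first list, and of Gpx4 (124) and Gstp1 (107), which reduce lipid peroxides and conjugate glutathione, in the second. The median log2 differences under saline were 0.05 to 0.15 for copper and iron handling and 0.06 to 0.16 for the antioxidant list. Of 12 genes of IL-6 and STAT3 signalling, 10 were measured and 0 were called by limma, and Jak1 (37.2) and Lifr (34.7), a kinase and a receptor of that pathway, had the highest mean levels.

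Of 16 genes of glucocorticoid signalling, 15 were measured, and 1, Sgk1, a kinase induced by glucocorticoids, was called by limma. Sgk1 was higher in FLT-SAL than in GC-SAL in FCT, with means of 93.3 and 48.1 (log2 difference 0.93 ± 0.19, SE, adjusted p 0.0192 by limma), and in CT, with means of 81.6 and 35.3 (1.18 ± 0.19, adjusted p 0.000341). Over all genes, 0.139%, 0.266%, 0.0507% and 0.0887% were called in this contrast in CA, DG, FCT and CT. The lists were chosen with earlier results of these data known, so calls of list genes in this contrast are a description. The call in FCT was lost on leaving out either of the first 2 FLT-SAL mice or either of mice 2 and 3 of GC-SAL. In this contrast, 33 of the 320 tests of pathway genes (10.3%) had an unadjusted p below 0.05, against 5.27% to 7.41% of all genes in a region. In FLT-BuOE against GC-BuOE, 0 of 320 tests of the 80 measured pathway genes in 4 regions were called by limma, edgeR or DESeq2. Over all genes, limma called 0.0127% to 0.108% in a region of that contrast. An unadjusted p below 0.05 was found in 38 of the 320 tests (11.9%), against 6.65% to 8.24% of all genes in a region. Tests of 1 gene in different regions share mice, so the tests are not independent here or under saline. Without GC-BuOE mouse 1 there was 1 call, Slc39a2 in DG, a zinc importer, with a log2 difference of -1.003 and an adjusted p of 0.0466.

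Astrocytes are the main source of metallothioneins in the brain, and their markers were looked at beside the members. All 14 astrocyte markers were measured and 0 were called in either flight contrast in any region. Of all genes, at most 0.108% were called in a region under BuOE and 0.266% under saline. The summed level of the 14 markers was 745 to 991 in CA, 877 to 950 in DG, 941 to 1276 in FCT and 1083 to 1352 in CT of FLT-SAL. In GC-SAL it was 674 to 842, 736 to 843, 840 to 913 and 985 to 1194, so that FLT-SAL and GC-SAL did not overlap in DG and FCT. The median log2 difference of the 14 markers was 0.07 to 0.21 in that contrast and -0.04 to 0.03 in FLT-BuOE against GC-BuOE, where the summed levels overlapped in every region. Their part in the values of Mt1 was not tested. Slc1a2 and Glul, the glutamate transporter and glutamine synthetase, had the highest mean levels of the list (227 and 204). Among oligodendrocyte markers, the myelin genes Mobp, Cldn11 and Cnp were called higher in CT of FLT-SAL than of GC-SAL, Mobp with means of 526 and 206, Cldn11 with 73.7 and 37.5 and Cnp with 124 and 67.2. The 8 markers reported here summed to 1015 to 1347 in CT of FLT-SAL and 566 to 605 in GC-SAL, and also did not overlap in CA (476 to 554 against 400.2 to 452) and FCT (890 to 1465 against 700.4 to 807). Their part in the values of the members was not tested. No marker of neurons (10 measured), microglia (8), endothelium (8), meninges (6) or choroid plexus (5) was called in either flight contrast, and the median log2 difference of the neuron markers was 0.18 to 0.40 in FLT-SAL against GC-SAL. Neuron marker sums did not overlap in CA, at 1745 to 1928 in FLT-SAL against 1299 to 1624 in GC-SAL. In DG they were 1837 to 1987 against 1576 to 1731, also without overlap, and FCT and CT overlapped. Choroid plexus sums were lower without overlap in CA (125 to 139 against 152 to 164) and overlapped elsewhere. Sums for microglia, endothelium and meninges overlapped in every region. The part of these markers in the values of the members was not tested. Of the region markers, Wfs1 of CA1 was called higher in CA (log2 difference 0.82) and C1ql2 of the dentate gyrus in DG (0.60) in that contrast. The marker lists, too, were chosen with earlier results of these data known, so these calls are a description.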

How the data were processed

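Tags were hybridized to 6 μm sections with the Mouse Whole Transcriptome Atlas probes. The authors made the deposited counts of 20175 probes per AOI with the GeoMx NGS Pipeline 2.3.4 (trimming, stitching, alignment to tags, removal of duplicate molecules), and no genome build enters. The authors then scaled each AOI by its upper quartile, and the deposited Q3-normalized signal holds 15782 genes and the negative-control row, which stayed out of all tests. Tables of the authors' own log2 fold changes and p-values were not used. After division by 1 factor per AOI, 99.98% of the values were whole (within 0.02), those of 15779 genes in all AOIs, and each member matched exactly 1 probe.

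The members and the gene lists were chosen with earlier results of these data known. Groups came from the labels. Members were tested only in FLT-BuOE against GC-BuOE and between regions, with limma 3.58.1 (R 4.3.3) on log2(Q3-normalized count + 1), a trended prior variance and Benjamini-Hochberg adjusted p-values over the 15782 genes. Fits over 48 AOIs took the mouse as a random block. Fold changes on this scale understate low genes. The p-values rest on 3 mice per group. The fits were tested on simulated data, with changes larger than those of the members. There all genes had the same spread between mice, so the simulation does not bear on 48-AOI p-values of genes with a high mouse share. Alternatives used edgeR 4.0.16 and DESeq2 1.42.0 on counts, other pseudocounts (0.5 and 5), a filter at 1.5 times the negative-control value, its subtraction, TMM scaling and leaving out each mouse, and the depth covariate was added after seeing the data.

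Named genes were the members, Mtf1 and Slc30a1, of each list up to 4 called genes or else the 2 with the highest mean, and the 5 genes most correlated with each member. Same-numbered AOIs of different groups did not deviate together (r between -0.18 and 0.12 over genes). Total counts of 322629 to 1579380 per AOI bound the precision, and counting error alone at the median count of Mt3 is 0.17 log2 units. Sequences and coordinates are from GENCODE vM21 and RefSeq (GRCm38), matched by symbol for 3 of 3 members. A result for 1 further marker gene is not reported here.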

Additional observations from a re-analysis of the deposited data

How the results depend on the processing

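In FLT-BuOE against GC-BuOE, 0 of 12 pairs of a member and a region were called under every alternative run, 0 of the 3 members averaged over regions and 0 of 18 comparisons between regions, also with the replicate block, where the adjusted p of Mt1 in DG was 0.0829. DESeq2 gave no adjusted p for Mt3 in DG, and that pair is counted as not called. Replicate numbers are shared by different mice and pair no animals. Replicate 1 had, however, the lowest y coordinate and the lowest mean total count in all 4 groups. Signs turned for small values. Mt3 in CA was -0.019 with edgeR and -0.26 to 0.38 with 1 mouse left out, the lowest without GC-BuOE replicate 1. Mt2 in DG was 0.0018 with a pseudocount of 5, 0.0039 with TMM scaling, 0.11 with edgeR, 0.069 with DESeq2, 0.086 with the depth covariate and -0.27 to 0.30 with 1 mouse left out. Mt1 in FCT was -0.11 to 0.19 and Mt2 in FCT -0.0071 to 0.26 with 1 mouse left out. The cause was not tested. Mt3 in DG between FLT-BuOE and FLT-SAL was 0.30 with the depth covariate, chosen after seeing the data. The adjusted p of Mt1 averaged over regions was 0.213 without the mean-variance trend, 0.0698 with the negative-control value subtracted, 0.0239 without the mouse block and 0.0263 with TMM scaling. Between FLT-SAL and GC-SAL, 12 of 12 pairs were positive, 10 to 12 with 1 mouse left out and 9 with the depth covariate. These signs are a description, since this contrast led to the choice of the family and the regions share mice. Calls among pathway genes in that contrast were 2, with 1 to 2 when 1 mouse was left out, 3 with edgeR (Plin4 in CT added), 3 with DESeq2 (Fth1 in CT added) and 3 with the replicate block (Klf9 in DG added), and in FLT-BuOE against GC-BuOE 0 to 1 when 1 mouse was left out.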
